A study of Mus musculus with 22 samples.

Results

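The genes described here belong to the unfolded protein response, the programme by which a cell matches the folding capacity of its endoplasmic reticulum (ER) to the load of secreted protein. They were chosen by symbol, and all 33 were found among the 27179 gene rows of the count matrix. By role, 16 are chaperones and folding enzymes of the ER (ER folding genes), 6 act in ER-associated degradation (ERAD), 4 are sensors or transcription factors of the response, and 7 belong to the branch run by the transcription factor ATF4. In every comparison 32 of them had enough reads to be tested. Derl3, a member of the derlin family of ERAD proteins, did not, and stood between 0 and 0.486 CPM (the count scaled by library size, with edgeR's TMM factors over all 22 libraries).

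The libraries are RNA-seq of C57BL/6J mouse bone marrow cells in 6 groups, measured to ask how loss of Lama4, the laminin α4 chain, changes the marrow stroma with and without leukaemia cells. KO_AML and WT_AML (n = 3 each) are acute myeloid leukaemia (AML) cells sorted as CD45.1-positive from co-culture with Lama4-/- or wild type stroma. These AML cells are themselves labelled wild type, come from animals of 10 to 12 weeks, and were made by putting human MLL-AF9 into lineage-negative KIT-positive marrow cells with a retrovirus. KO_MSC_AML (n = 3, Lama4-/-) and WT_MSC_AML (n = 5, wild type) are mesenchymal stem cells (MSC) sorted from the same kind of co-culture after 48 h, with 30000 cells of each type plated per well. KO_MSC (Lama4-/-) and WT_MSC (wild type, n = 4 each) are MSC cultured alone. All MSC were expanded in culture from CD51-positive, SCA1-positive sorted cells of animals of 10 to 14 weeks, so they are a culture-grown population and not cells taken directly from marrow. The labels do not say which replicates came from separate animals, so a p-value here speaks of the spread among these libraries alone, and that spread may be technical.

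The ER folds proteins of the secretory pathway with chaperones such as BiP, the product of Hspa5, and with disulfide isomerases, and it passes failed products to ERAD. When unfolded protein builds up, the sensors ATF6, IRE1 (gene Ern1, which splices Xbp1 mRNA) and PERK (gene Eif2ak3) raise chaperone and ERAD transcription and slow translation. PERK acts through eIF2 and ATF4, whose targets serve amino acid supply and stress. ATF4 can also be induced without ER stress by other kinases of eIF2, for instance when amino acids are short. Stromal cells secrete large amounts of collagen, and Serpinh1 encodes the collagen chaperone HSP47.

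Library totals ran from 11201751 to 24826876 counts. Lama4 followed the labels, at 0 to 0.23 CPM in KO_MSC_AML against 201 to 306 CPM in WT_MSC_AML, and at 0.357 to 1.03 CPM in KO_MSC against 321 to 347 CPM in WT_MSC. The cell type label of KO_MSC_AML replicate 3 says AML, but its title and genotype say MSC, and its Col1a1 (a collagen chain) was at 17697 CPM and its Ptprc (CD45) at 0.515 CPM, so it was used as MSC. The MSC markers summed to at least 21552 CPM in every MSC library. The 12 pan-haematopoietic markers summed to 4519 to 4957 CPM in the AML libraries, to 21.9 to 81.8 CPM in KO_MSC_AML, to 38.6 to 142 CPM in WT_MSC_AML and to at most 5.22 CPM in MSC alone. WT_MSC replicate 1 stood apart from the other WT_MSC libraries: it had Xist (232 CPM) and almost no Y-linked Ddx3y (0.882 CPM), and its 6 proliferation markers summed to 37.7 CPM against 354 to 449 CPM in replicates 2 to 4. Of the KO_MSC libraries, replicates 2 and 4 had Ddx3y and little Xist, replicate 3 had Xist and little Ddx3y, and both were present in replicate 1. All KO_MSC_AML libraries had Xist and all WT_MSC_AML libraries had Ddx3y, so genotype and sex of origin cannot be told apart in that comparison.

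Scaled to exon length, the most abundant of the 33 transcripts in MSC were Serpinh1, the disulfide isomerases P4hb and Pdia3, the lectin chaperone gene Calr, Hsp90b1 (the ER form of HSP90) and Hspa5. Serpinh1 averaged 910 CPM per kb in KO_MSC_AML, 718 in WT_MSC_AML, 536 in KO_MSC and 655 in WT_MSC. It was near absent from AML cells, at 2.63 CPM per kb in KO_AML and 4.37 in WT_AML. There Calr led, at 691 CPM per kb in KO_AML and 705 in WT_AML. Of the ATF4 branch, Trib3 averaged 32.2 CPM per kb in KO_MSC_AML, 15.4 in WT_MSC_AML, 4.91 in KO_MSC and 8.63 in WT_MSC. The sensor gene Ern1 had 1.84 to 2.18 CPM per kb across the MSC groups, below every other tested gene of the set there.

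**Figure D1:**
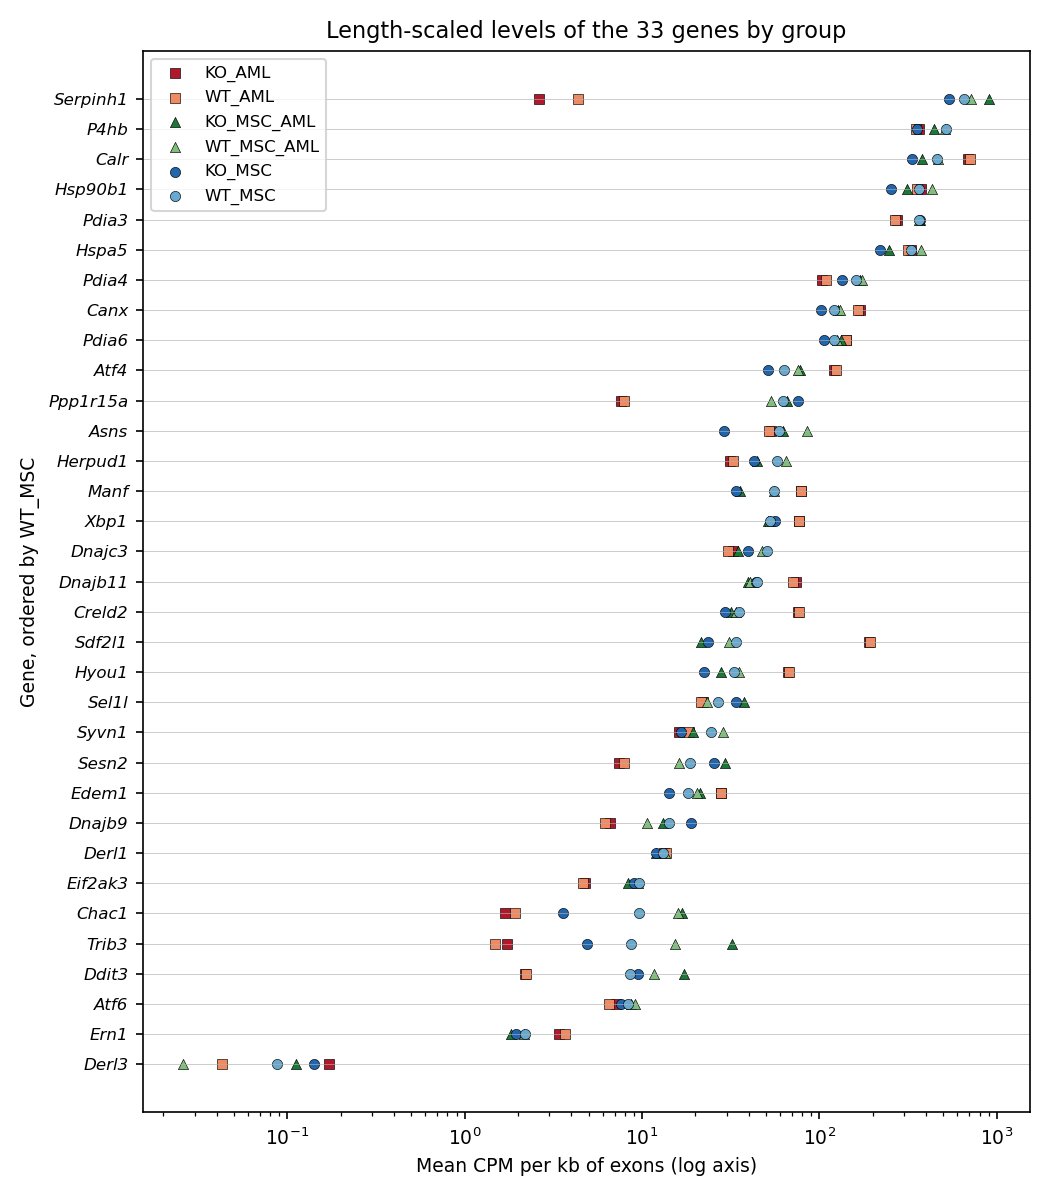
Mean CPM per kb of exons of each of the 33 genes in the 6 groups, on a log axis, ordered by the level in WT_MSC. Serpinh1 is the most abundant of them in MSC, at 655 CPM per kb in WT_MSC, and stands at 2.63 and 4.37 CPM per kb in the AML groups.

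Some chaperone and ERAD transcripts were lower in Lama4-/- MSC than in wild type MSC, 7 of 21 in culture alone and 7 of 21 after co-culture, where 1 was higher. The genes that passed as lower stood at between 0.619 of the wild type level (Manf in culture alone) and 0.748 (Dnajc3 after co-culture). In culture alone 7 of the 21 tested ER folding and ERAD genes fell in KO_MSC and 0 rose (edgeR's quasi-likelihood test, Benjamini-Hochberg adjusted p under 0.05). Of all 13344 genes tested, 11.6% were called, 6.34% as lower and 5.24% as higher. The genes that fell were Manf, Syvn1, Hyou1, Hsp90b1, Hspa5, Calr and P4hb. After co-culture 7 of the 21 fell in KO_MSC_AML relative to WT_MSC_AML and 1, Sel1l, rose, where 31.4% of all 13710 genes were called (14.5% lower, 16.9% higher). There the 7 were Herpud1, Manf, Dnajc3, Syvn1, Hspa5, Sdf2l1 and Hsp90b1, so that the share of the set that was lower is to be read against a background in which 14.5% of all genes were lower. Single libraries moved these counts: in culture alone the 7 became 12 without WT_MSC replicate 1, 4 without KO_MSC replicate 3, 1 without WT_MSC replicate 4 or KO_MSC replicate 2, and 0 without WT_MSC replicate 2 or 3 or KO_MSC replicate 4, and after co-culture the 8 became 5 without WT_MSC_AML replicate 1, 2 or 4. Over the fits with a library left out, the calls among all genes ran from 55 to 6242 in culture alone. After co-culture they ran from 2958 to 4535. The median log2 fold change of the 21 genes was −0.33 in culture alone and −0.14 after co-culture, against 0.01 and −0.01 over all genes.

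BiP, the ATP-driven chaperone that also holds the sensors inactive, had 988, 1010.3, 802 and 927 CPM of Hspa5 in KO_MSC replicates 1 to 4, against 1398, 1481, 1396 and 1308 CPM in WT_MSC. The groups did not overlap, and WT_MSC replicate 1 sat with the other wild type libraries. After co-culture Hspa5 had 1173, 765 and 1189 CPM in KO_MSC_AML, against 1604, 1519, 1282, 1721 and 1749.5 CPM in WT_MSC_AML. The groups again did not overlap, although the highest KO library lay close to the lowest wild type library. The log2 fold change was −0.57 (SE 0.12, edgeR adjusted p = 0.0300) in culture alone and −0.58 (SE 0.17, edgeR adjusted p = 0.0244) after co-culture, 0.675 and 0.67 of the wild type level.

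Manf, a secreted ER-stress protein that binds BiP, had the smallest adjusted p of the set in culture alone. It stood at 124, 132, 102 and 121 CPM in KO_MSC, against 195, 204, 199 and 184 CPM in WT_MSC. After co-culture it stood at 135, 96.6 and 146 CPM in KO_MSC_AML, against 205, 189.5, 188, 209 and 185 CPM in WT_MSC_AML. Every KO library lay below every wild type library in either condition, and the log2 fold changes were −0.69 (SE 0.097, edgeR adjusted p = 0.0129) and −0.62 (SE 0.13, edgeR adjusted p = 0.00508).

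Hyou1, an ER chaperone that exchanges nucleotide on BiP, had 149.9, 180.4, 147 and 171 CPM in KO_MSC against 255, 254, 226 and 225 CPM in WT_MSC (log2 −0.55, SE 0.10, edgeR adjusted p = 0.0245). Its co-cultured libraries overlapped, at 213, 149 and 244 CPM in KO_MSC_AML and 228 to 283 CPM in WT_MSC_AML, and it did not pass there (−0.32, SE 0.15, edgeR adjusted p = 0.118). Hsp90b1 passed in both conditions (−0.52, SE 0.11, edgeR adjusted p = 0.0299 alone; −0.45, SE 0.15, edgeR adjusted p = 0.0469 co-cultured). Calr (−0.46) and P4hb (−0.53), which also serves as a subunit of collagen prolyl 4-hydroxylase, passed in culture alone. P4hb stood at 945 to 1104 CPM in KO_MSC, against 1539 to 1612 CPM in WT_MSC replicates 2 to 4 and 1153 CPM in replicate 1.

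**Figure D2:**
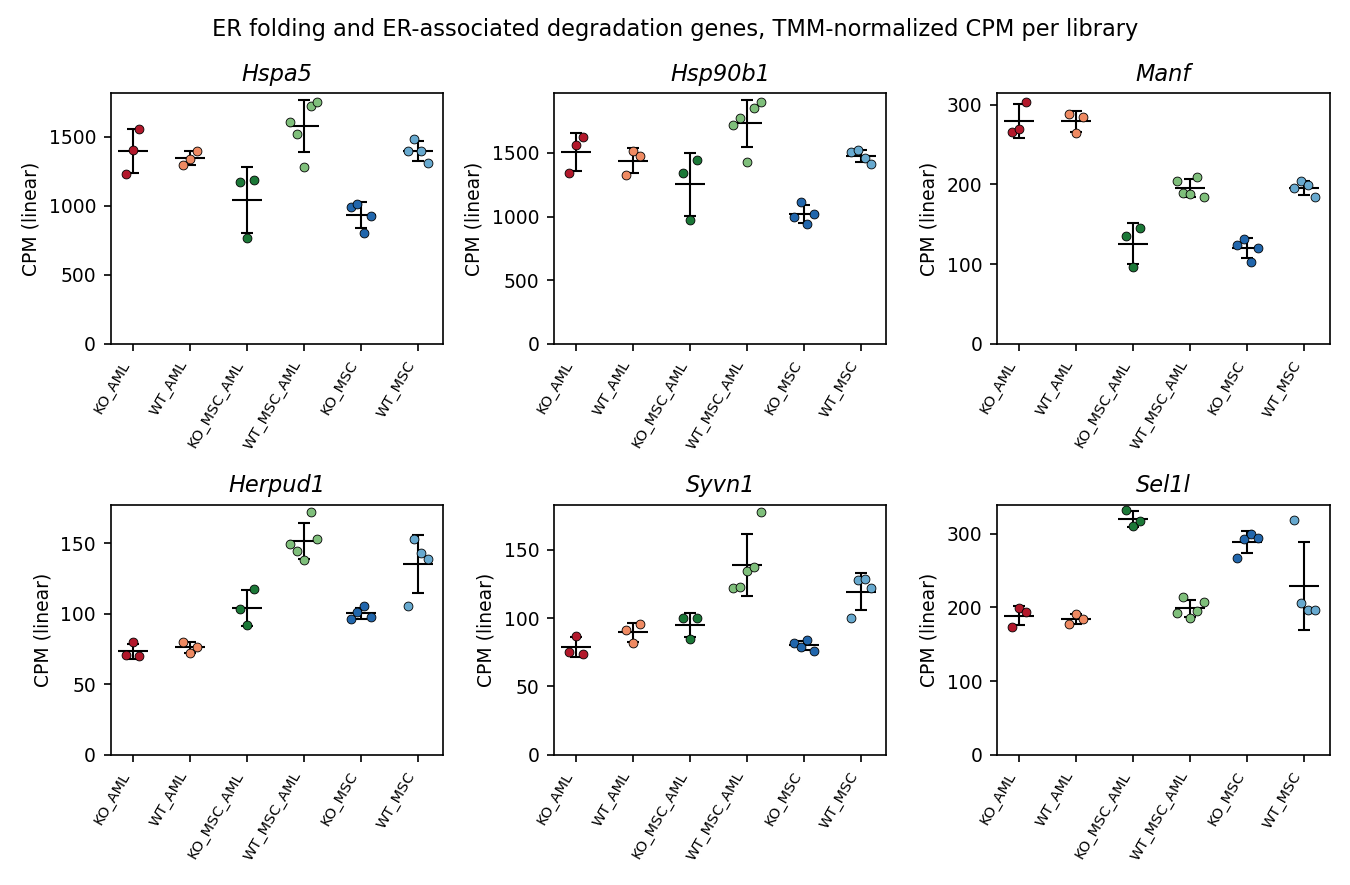
TMM-normalized CPM (linear axis from 0) of 3 ER folding genes and 3 ERAD genes. Points are libraries in replicate order, and lines show the mean with the SD. Hspa5 and Manf are lower in every KO_MSC library (at most 1010.3 and 132 CPM) than in every WT_MSC library (at least 1308 and 184 CPM), and Sel1l is higher in KO_MSC_AML (309.9 to 332 CPM) than in WT_MSC_AML (186 to 213 CPM).

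Among the ERAD genes, Syvn1 encodes HRD1, the membrane ubiquitin ligase, and Sel1l its adaptor, and after co-culture their transcripts moved in opposite directions. Syvn1 stood at 82, 78.9, 83.9 and 76.2 CPM in KO_MSC against 99.8, 128, 128 and 122 CPM in WT_MSC, with a log2 fold change of −0.56 (SE 0.10, edgeR adjusted p = 0.0229). After co-culture it stood at 99.9, 84.5 and 99.9 CPM in KO_MSC_AML against 122, 123, 135, 137 and 178 CPM in WT_MSC_AML (−0.53, SE 0.13, edgeR adjusted p = 0.0118). All KO libraries lay below all wild type libraries in either condition.

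Sel1l stood at 332, 309.9 and 317 CPM in KO_MSC_AML, against 192, 213, 186, 194 and 207 CPM in WT_MSC_AML. The groups were well apart, with a log2 fold change of 0.70 (SE 0.089, edgeR adjusted p = 0.00027), and it passed in 14 of 14 alternative settings. In culture alone it stood at 267, 293, 299.7 and 295 CPM in KO_MSC, against 318, 206, 196 and 197 CPM in WT_MSC. WT_MSC replicate 1 was the highest of the 8 libraries, and the gene did not pass (0.35, SE 0.17, edgeR adjusted p = 0.182). Without that library its log2 fold change was 0.55 (edgeR adjusted p = 0.00101). Fits with a library left out called 55 to 6242 of all genes in this comparison, and the share in this fit is not given here.

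Herpud1 encodes a membrane protein of the HRD1 complex. It stood at 103, 91.8 and 117 CPM in KO_MSC_AML against 149.6, 145, 138, 172 and 153 CPM in WT_MSC_AML, without overlap (log2 −0.52, SE 0.11, edgeR adjusted p = 0.00495). In culture alone it did not pass, at 96.5 to 105 CPM in KO_MSC and 106 to 153 CPM in WT_MSC (−0.41, SE 0.12, edgeR adjusted p = 0.059). Dnajc3, the BiP co-chaperone p58IPK, stood at 173 to 185 CPM in KO_MSC_AML against 228 to 262 CPM in WT_MSC_AML (−0.42, SE 0.091, edgeR adjusted p = 0.0058). Sdf2l1 (−0.51, edgeR adjusted p = 0.0281) passed although its groups overlapped. Edem1, which marks glycoproteins for degradation, and Derl1 passed in neither condition.

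The ER folding genes that did not pass in either condition were Creld2, Canx, Pdia3, Pdia4, Pdia6, Dnajb9, Dnajb11 and Serpinh1. Pdia3, an isomerase that works with the lectin chaperones, averaged 1164 CPM in KO_MSC_AML and 1146 CPM in WT_MSC_AML, and 1157 CPM in KO_MSC and 1139 CPM in WT_MSC, with log2 fold changes of 0.04 in either condition. Dnajb9, a BiP co-chaperone that represses IRE1, had a positive fold change (0.31 after co-culture, 0.43 in culture alone). WT_MSC replicate 1 had 53.3 CPM of it, near the 41.8 to 52.2 CPM of KO_MSC, while WT_MSC replicates 2 to 4 had 30.4 to 30.5 CPM. The 2 comparisons of KO with wild type MSC share no library: of the 21 ER folding and ERAD genes 15 had a negative fold change in both, 3 a positive one in both, and 3 changed sign. Hspa5, Hsp90b1, Manf and Syvn1 were called lower in both, which is 57.1% of the 7 called in culture alone and 50% of the 8 called after co-culture.

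A subset of the libraries allowed KO and wild type MSC with the same sex-linked transcripts to be compared in culture alone: KO_MSC replicates 2 and 4 and WT_MSC replicates 2 to 4 all had Ddx3y and little Xist. In this subset 14 of the 21 ER folding and ERAD genes were lower and 3 were higher (Dnajb9, Dnajb11 and Sel1l), among 8178 of 13622 genes called. Hspa5 had a log2 fold change of −0.52 (edgeR adjusted p = 1.07e-06) and Manf of −0.63 (edgeR adjusted p = 9.82e-08). By a chi-square of counts per degree of freedom, pairs of WT_MSC replicates 2 to 4 gave 4.42 to 8.31. The KO_MSC pair gave 6.9, and same-group pairs with a left-out library gave 57 to 242. The p-values of the subset thus rest on a small spread. The subset leaves out KO_MSC replicate 1, which had both Xist and Ddx3y. It also leaves out WT_MSC replicate 1 and KO_MSC replicate 3, which stand apart in other ways too. The proliferation markers, which summed to 16.8 to 34.6 CPM in KO_MSC and to 354 to 449 CPM in WT_MSC replicates 2 to 4, moved with genotype in it, and their part in the result was not tested. WT_MSC replicate 1, with a sum of 37.7 CPM, had Hspa5, Manf, Hyou1, Hsp90b1 and Calr near the other wild type libraries, but P4hb (1153 CPM against 1539 to 1612 CPM) and Syvn1 (99.8 CPM against 122 to 128 CPM) below them, toward the KO_MSC libraries. In co-culture the sums were 90.2 to 184 CPM in KO_MSC_AML and 272 to 558 CPM in WT_MSC_AML.

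The response acts on promoters, and RefSeq promoter windows (GRCm38.p6, 250 bases before to 50 after the start) were matched for 29 of the 33 genes. The ER stress response element (ERSE, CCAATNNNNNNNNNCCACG, searched on both strands like the others) binds NF-Y and ATF6. It was found in 7 of 14 ER folding genes and 2 of 5 ERAD genes, against 0.119% of all 32851 windows. ERSE-II (ATTGG, any 1 base, CCACG, 0.0365% of all windows) was found in Herpud1 and Dnajb11. The unfolded protein response element (UPRE, TGACGTGG or TGACGTGA, 1.12% of all windows) was found in Hspa5 alone among the 29. The C/EBP-ATF response element to which ATF4 binds (CARE, TGATGNAAN, 3.95% of all windows) was found in Trib3, Chac1 and Asns of 7 ATF4 branch genes and in Herpud1. A match is a string of letters in these windows and not a measured site, none of the matches in these genes overlapped another, and no ERSE was found in the 7 ATF4 branch genes. Shown here are the windows of the ER chaperones that fell in both conditions and have a match (chr2:34771840-34772139, plus strand, and chr10:86705395-86705694, minus strand) and of the 2 ATF4 branch genes with the largest fold changes in KO_MSC_AML against KO_MSC (chr2:119350992-119351291, plus strand, and chr2:152344011-152344310, minus strand). Each is written 5′ to 3′ on the gene's strand, with the motif matches in capitals.
Hspa5: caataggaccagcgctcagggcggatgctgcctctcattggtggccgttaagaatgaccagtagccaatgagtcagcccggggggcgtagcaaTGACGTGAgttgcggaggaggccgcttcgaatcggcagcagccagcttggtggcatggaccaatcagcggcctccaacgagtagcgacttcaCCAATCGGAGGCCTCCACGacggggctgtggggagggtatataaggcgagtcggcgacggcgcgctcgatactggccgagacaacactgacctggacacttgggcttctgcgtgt
Hsp90b1: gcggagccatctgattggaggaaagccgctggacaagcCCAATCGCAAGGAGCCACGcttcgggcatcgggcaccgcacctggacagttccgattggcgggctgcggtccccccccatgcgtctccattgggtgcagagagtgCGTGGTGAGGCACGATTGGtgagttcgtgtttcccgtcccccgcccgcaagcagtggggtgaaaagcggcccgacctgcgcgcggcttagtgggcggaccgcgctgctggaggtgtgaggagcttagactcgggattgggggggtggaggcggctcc
Chac1: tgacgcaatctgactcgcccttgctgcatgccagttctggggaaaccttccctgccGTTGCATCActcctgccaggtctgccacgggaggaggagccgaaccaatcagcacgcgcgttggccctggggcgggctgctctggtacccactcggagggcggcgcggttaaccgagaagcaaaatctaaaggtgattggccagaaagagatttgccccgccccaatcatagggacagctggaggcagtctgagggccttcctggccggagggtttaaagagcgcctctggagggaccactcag
Trib3: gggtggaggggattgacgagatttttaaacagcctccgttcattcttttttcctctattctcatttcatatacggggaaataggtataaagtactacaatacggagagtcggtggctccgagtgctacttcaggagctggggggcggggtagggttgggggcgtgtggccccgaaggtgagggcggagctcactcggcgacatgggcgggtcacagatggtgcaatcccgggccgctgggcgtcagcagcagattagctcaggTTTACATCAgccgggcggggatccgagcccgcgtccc
In Hspa5 the capitals mark a UPRE from base −157 and an ERSE from base −65, counted from the start. In Hsp90b1 they mark ERSE matches from bases −212 and −107, the second on the opposite strand. In Chac1 and Trib3 they mark a CARE on the opposite strand, from base −194 and from base 13.

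**Figure D3:**
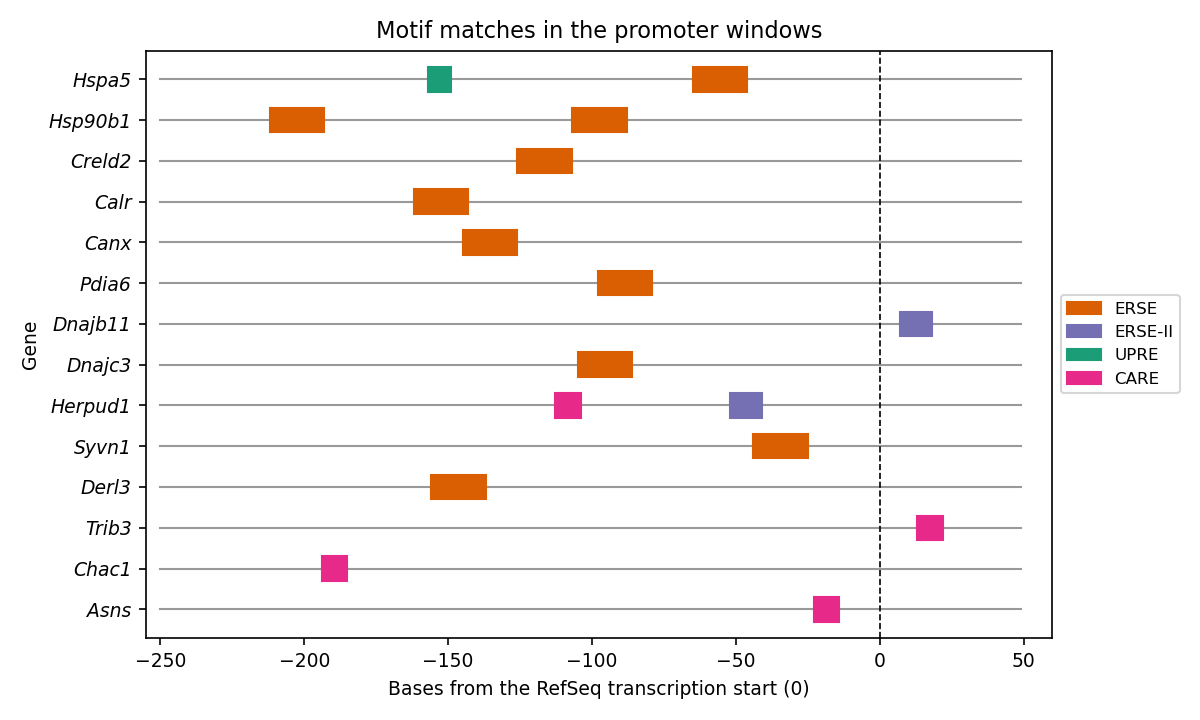
Position of each motif match in the promoter windows of the 14 genes that have one, in bases from the RefSeq transcription start (dashed line at 0); grey lines are the windows. ERSE matches lie between bases −212 and −26, all upstream of the start, and the CARE matches of Trib3, Chac1 and Asns lie at different distances from it.

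None of the 4 sensor and transcription factor genes passed in any comparison among MSC (edgeR, 0 of 4 at an unadjusted p under 0.05 in each; 33.6% of all genes were under it in culture alone and 42.7% after co-culture). Xbp1 stood at 163 to 173 CPM in KO_MSC_AML, 159 to 178 CPM in WT_MSC_AML, 154 to 199 CPM in KO_MSC and 159.8 to 187 CPM in WT_MSC. In the subset with Ddx3y it was called higher (log2 0.24). Gene counts do not tell spliced from unspliced Xbp1. Atf6 had the smallest p in culture alone (log2 −0.11, SE 0.093, edgeR adjusted p = 0.419) and Ern1 after co-culture (−0.22, SE 0.13, edgeR adjusted p = 0.245). Eif2ak3 averaged 50.4 CPM in KO_MSC_AML and 57.1 CPM in WT_MSC_AML, and 54.1 CPM in KO_MSC and 58.3 CPM in WT_MSC. Levels of mRNA do not show whether the sensors were active.

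In the ATF4 branch 1 gene, Sesn2, passed in a comparison of KO with wild type MSC, and it was higher. In culture alone 0 of its 7 genes passed in KO_MSC against WT_MSC by edgeR. At an unadjusted p under 0.05 were 4 of the 7, against 33.6% of all genes. DESeq2 called 2 lower, Chac1 and Asns. The share of all genes that DESeq2 called is not given here, and it can differ from edgeR's. After co-culture 1 of 7 passed in KO_MSC_AML against WT_MSC_AML: Sesn2 rose, where 31.4% of all genes were called. The spread within groups was wide for Trib3, Chac1, Asns and Ddit3, and KO_MSC replicate 3 stood above the other KO_MSC libraries in each.

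Atf4 itself had 189, 140.0 and 220.0 CPM in KO_MSC_AML, against 169, 166, 152, 195 and 216 CPM in WT_MSC_AML. In culture alone it had 110.0, 111, 153 and 112 CPM in KO_MSC, against 127, 161, 159.5 and 152 CPM in WT_MSC. The co-cultured groups covered one another, and in culture alone KO_MSC replicate 3 lay within the wild type range (log2 0.05 after co-culture and −0.29 alone, edgeR adjusted p = 0.845 and 0.182). ATF4 is controlled to a large part at translation, so its mRNA level is not its activity.

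Ddit3, which encodes the pro-apoptotic factor CHOP, had 29.2, 18.6 and 41.3 CPM in KO_MSC_AML, against 17.4, 16, 16.4, 18.1 and 32.6 CPM in WT_MSC_AML. In culture alone it had 12.1, 11.6, 27.5 and 13.5 CPM in KO_MSC, against 14.7, 16.4, 15.9 and 11.7 CPM in WT_MSC. Neither difference passed (log2 0.58, SE 0.28, edgeR adjusted p = 0.148 after co-culture; 0.16, SE 0.29, edgeR adjusted p = 0.724 alone), and single libraries, KO_MSC replicate 3 and WT_MSC_AML replicate 5, stood above the others of their groups.

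Sesn2, a stress-inducible regulator of mTORC1 that is also a target of p53, had 103, 97 and 105 CPM in KO_MSC_AML, against 57.7, 63.4, 55.7, 57.4 and 47.6 CPM in WT_MSC_AML. The groups were far apart (log2 0.87, SE 0.10, edgeR adjusted p = 0.000171), and the call held in 14 of 14 alternative settings. In culture alone Sesn2 had 102, 87.6, 83.3 and 81.8 CPM in KO_MSC, against 92, 59.6, 55.5 and 51.8 CPM in WT_MSC. Here WT_MSC replicate 1 lay among the KO libraries, and the gene did not pass (0.47, SE 0.18, edgeR adjusted p = 0.116). Without that library it had a log2 fold change of 0.69 (edgeR adjusted p = 0.000928). The share of all genes called in that fit is not given here, and such fits called 55 to 6242 genes.

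Chac1, which degrades glutathione, had 2.55, 5.18, 12.2 and 3.45 CPM in KO_MSC, against 9.65, 21, 17.8 and 14.5 CPM in WT_MSC. KO_MSC replicate 3 overlapped WT_MSC replicate 1, and the difference did not pass (log2 −1.41, SE 0.49, edgeR adjusted p = 0.089). Asns, asparagine synthetase, had 55.4, 72.6, 128 and 60.1 CPM in KO_MSC, against 68.5, 221, 183 and 172 CPM in WT_MSC (−1.01, SE 0.39, edgeR adjusted p = 0.115). For Chac1 the libraries that overlapped were the ones that stand apart. For Asns WT_MSC replicate 1 broke the separation, as it lay below KO_MSC replicates 2 and 3. KO_MSC replicate 3 lay below the other wild type libraries. In the subset with Ddx3y, 5 of the 7 genes were called: Trib3 (−2.30), Chac1 (−2.06), Asns (−1.54) and Atf4 (−0.49) lower and Sesn2 (0.61) higher, again among 8178 of 13622 genes called. Ppp1r15a, which encodes GADD34, a subunit of the phosphatase that restores eIF2, had 200 to 269 CPM in KO_MSC and 169 to 191 CPM in WT_MSC and did not pass (0.30, edgeR adjusted p = 0.123).

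Trib3, a pseudokinase induced by ATF4 and CHOP, was the most variable gene of the branch. It had 69.7, 31.1 and 104 CPM in KO_MSC_AML against 34.9, 30.4, 17.9, 38.5 and 41.5 CPM in WT_MSC_AML, a log2 fold change of 1.08 that did not pass (SE 0.36, edgeR adjusted p = 0.0522; DESeq2 adjusted p = 0.0065). In culture alone it had 2.49, 4.24, 30.2 and 4.81 CPM in KO_MSC against 6.33, 27.7, 20.8 and 18.6 CPM in WT_MSC (−0.80, SE 0.80, edgeR adjusted p = 0.506). KO_MSC replicate 3 was the highest of these 8 libraries and WT_MSC replicate 1 the lowest wild type library.

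**Figure D4:**
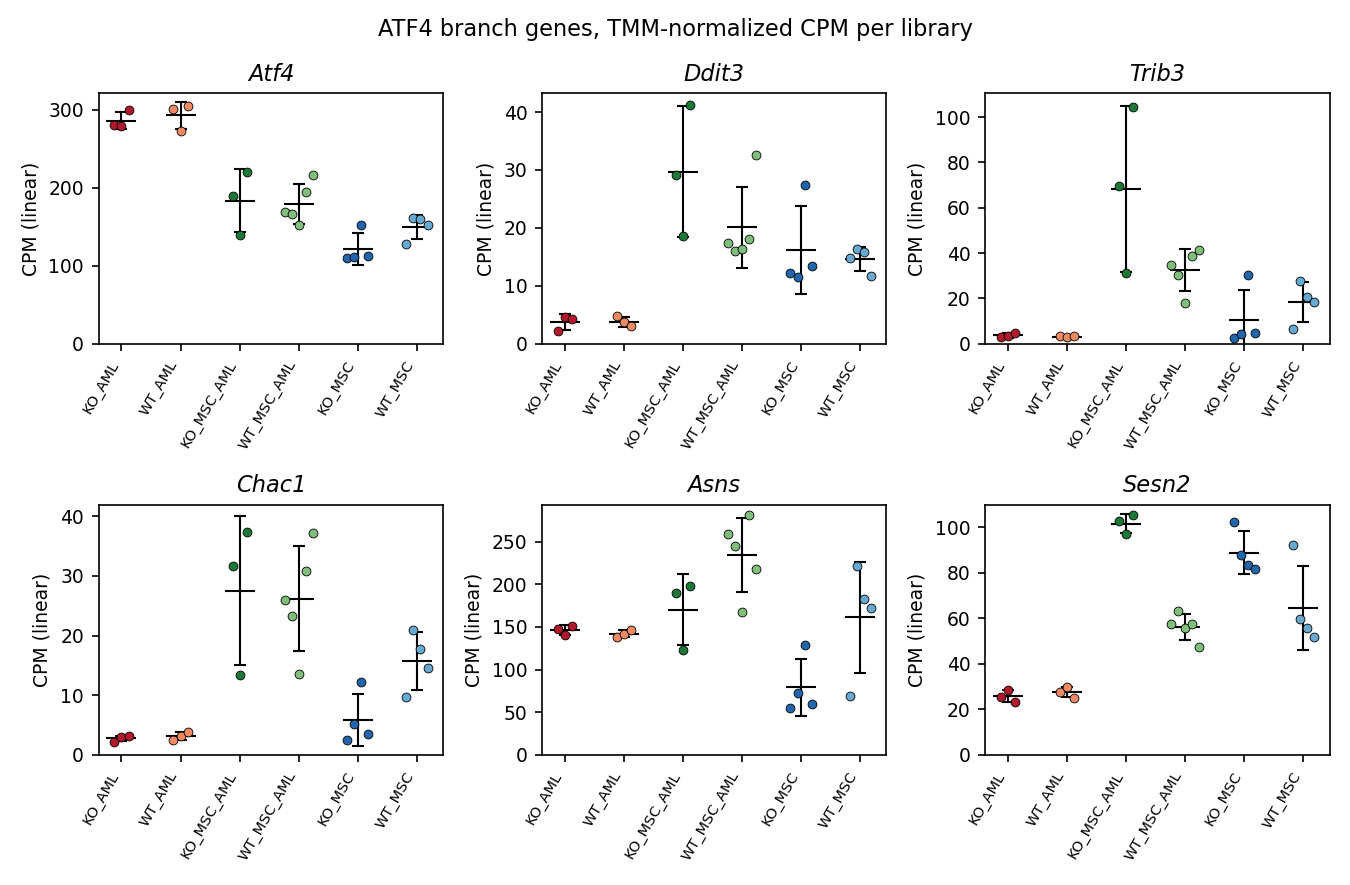
TMM-normalized CPM (linear axis from 0) of 6 ATF4 branch genes. Points are libraries in replicate order, and lines show the mean with the SD. In KO_MSC, replicate 3 lies above the other libraries for Atf4, Ddit3, Trib3, Chac1 and Asns (30.2 CPM of Trib3 against 2.49 to 4.81), and Sesn2 is higher in KO_MSC_AML (97 to 105 CPM) than in WT_MSC_AML (47.6 to 63.4 CPM).

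Co-culture with AML cells left chaperone transcripts of MSC without a call. Of the 32 tested genes 0 passed in WT_MSC_AML against WT_MSC by edgeR, with 3 at an unadjusted p under 0.05, and 0 of the ER folding, ERAD and ATF4 branch genes by DESeq2. In all, 0.744% of 13439 genes were called by edgeR, and 18.3% had an unadjusted p under 0.05. The median of the 21 ER folding and ERAD genes was 0.03 and the ATF4 branch median was 0.44, against −0.0037 over all genes. Chac1 had the smallest p of the branch (log2 0.73, SE 0.29, edgeR adjusted p = 0.231), Dnajb9 of the ER folding genes (−0.41, SE 0.18, edgeR adjusted p = 0.263), Syvn1 of the ERAD genes (0.21, SE 0.13, edgeR adjusted p = 0.382) and Atf6 of the sensors (0.14, SE 0.092, edgeR adjusted p = 0.436).

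In KO_MSC_AML against KO_MSC 0 of the 32 passed by edgeR, where 0.743% of 13452 genes were called. At an unadjusted p under 0.05 were 8 of the 32, near the 24.5% of all genes. The ATF4 branch had the widest fold changes of the 33 genes. Trib3 averaged 68.4 ± 36.7 CPM in KO_MSC_AML (SD, n = 3) and 10.4 ± 13.2 CPM in KO_MSC (SD, n = 4). The lowest co-cultured library (31.1 CPM) lay just above KO_MSC replicate 3 (30.2 CPM), and the log2 fold change was 2.69 (SE 0.89, edgeR adjusted p = 0.129). Chac1 averaged 27.5 ± 12.5 CPM in KO_MSC_AML and 5.85 ± 4.39 CPM in KO_MSC, with 13.4 to 37.4 CPM in the co-cultured libraries against 2.55 to 12.2 CPM (2.21, SE 0.58, edgeR adjusted p = 0.086). Asns (1.09, edgeR adjusted p = 0.0967), Ddit3 (0.86, edgeR adjusted p = 0.208) and Atf4 (0.57, edgeR adjusted p = 0.109) had positive fold changes too. DESeq2 called Chac1, Asns and Atf4 higher. Its share of all genes called is not given here, so these calls are not to be set against edgeR's share.

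Which of these genes passed depended on single libraries. Without KO_MSC replicate 3, Trib3 (4.13), Chac1 (2.87), Asns (1.42), Ddit3 (1.23) and Atf4 (0.70) were all called higher in KO_MSC_AML, with edgeR adjusted p of 0.0136 to 0.0391, and 1324 genes in all were called. All KO_MSC_AML libraries had Xist, and replicate 3 was the only KO_MSC library with Xist and little Ddx3y. Sex of origin and co-culture therefore cannot be told apart in that fit. The fit with all libraries was unbalanced as well, since KO_MSC replicates 2 and 4 had Ddx3y and little Xist. The part of sex of origin in its fold changes was not tested. Without KO_MSC_AML replicate 2, 1 of the 7 was called. Among the folding genes, Serpinh1 had 2224, 1608 and 2836 CPM in KO_MSC_AML against 1141, 1311, 1570.5 and 1217 CPM in KO_MSC. The groups did not overlap, but it did not pass (0.75, SE 0.22, edgeR adjusted p = 0.0967). Edem1 had a log2 fold change of 0.58 (SE 0.17, edgeR adjusted p = 0.0959) and Dnajb9 of −0.54 (SE 0.16, edgeR adjusted p = 0.1). Co-cultured MSC were sorted and MSC cultured alone carry no label of a sort of their own, so the sort and contact with AML cells cannot be told apart in these comparisons. The KO_MSC libraries also enter KO_MSC against WT_MSC, so a high or low KO_MSC library moves the fold changes of both comparisons, in opposite directions.

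Whether the response to co-culture differed between genotypes was tested as an interaction over all 16 MSC libraries. It passed for 0 of the 32 genes by edgeR (3 at an unadjusted p under 0.05) and for 0 of the ER folding, ERAD and ATF4 branch genes by DESeq2, and edgeR called 0% of 14247 genes, with 7.73% at an unadjusted p under 0.05. All 7 ATF4 branch genes had a positive interaction, with a median of 0.41 against 0.02 over all genes. For Trib3 it was 1.87 (SE 0.95, edgeR adjusted p = 0.678) and for Chac1 1.49 (SE 0.64, edgeR adjusted p = 0.595). For Hspa5 it was −0.02 (SE 0.21, edgeR adjusted p = 0.991) and for Serpinh1 0.62 (SE 0.22, edgeR adjusted p = 0.56). Without KO_MSC replicate 3, Trib3 alone among the 7 passed (3.32, edgeR adjusted p = 0.0411). That fit lacks the only KO_MSC library with Xist and little Ddx3y, so sex of origin cannot be told apart from the interaction. The fit over all 16 libraries was also unbalanced in sex-linked transcripts, and their part was not tested. Over the fits with a library left out, 0 to 81 of all genes were called.

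**Figure D5:**
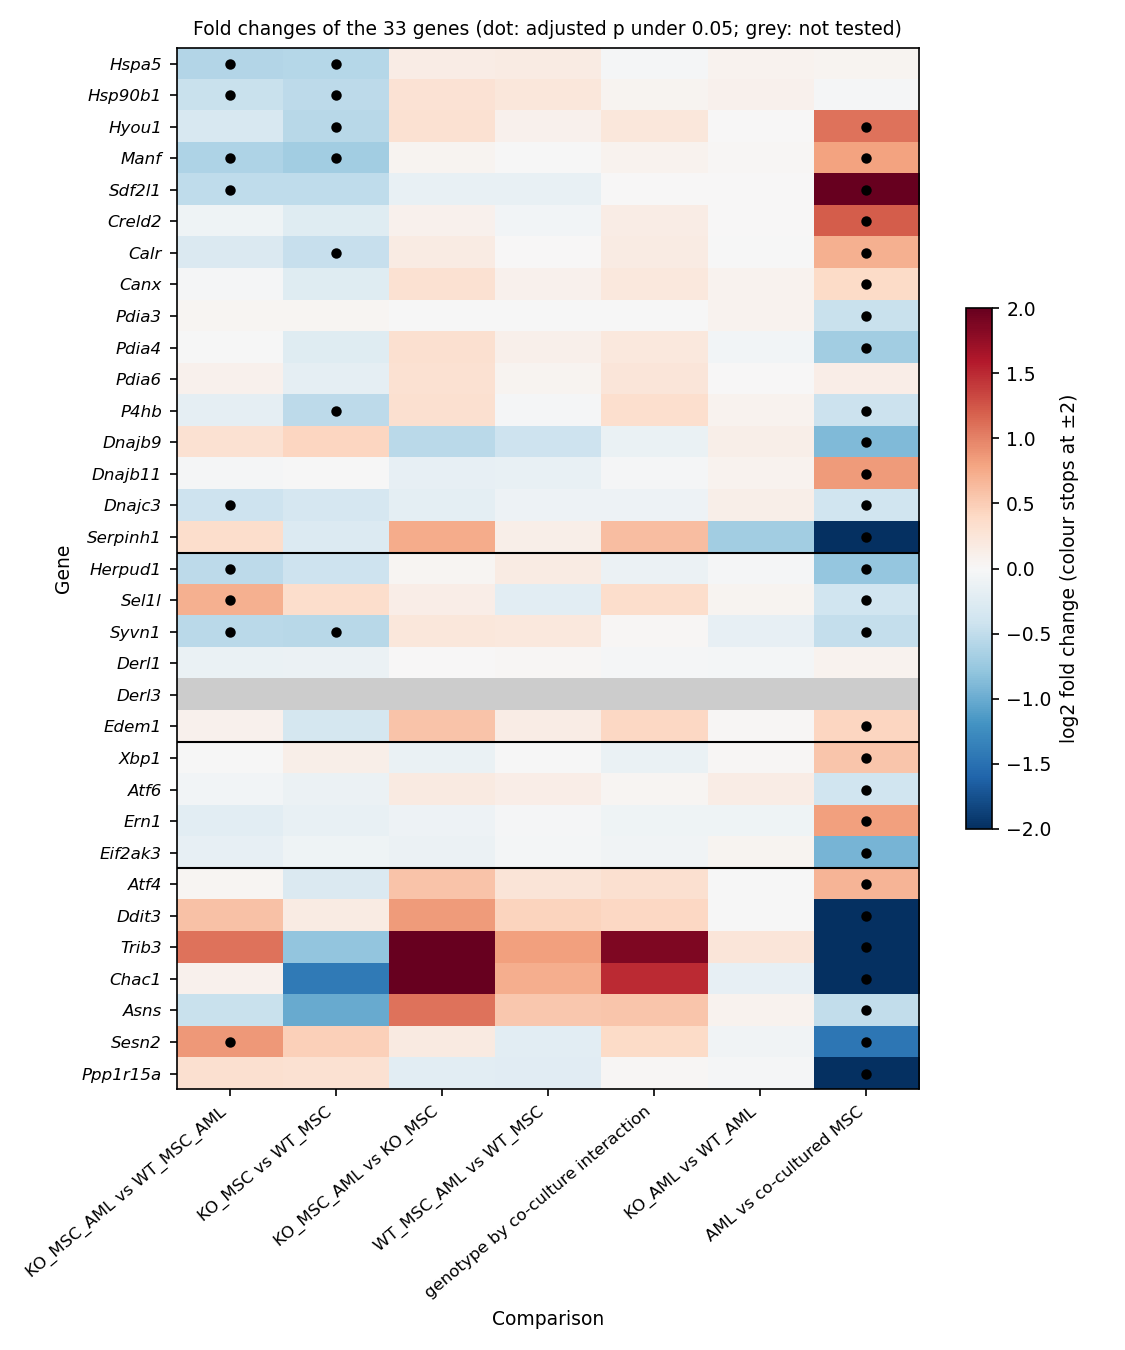
Log2 fold change of each of the 33 genes (rows, grouped as ER folding, ERAD, sensors and ATF4 branch by black lines) in 7 comparisons (columns). Black dots mark an adjusted p under 0.05 and grey cells were not tested. Hspa5, Hsp90b1, Manf and Syvn1 carry a dot in both KO against WT columns of MSC, and the interaction column has no dot.

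In AML cells no difference by the genotype of the stroma they had been cultured with passed the test. Of the 32 tested genes 0 passed in KO_AML against WT_AML by edgeR (1, Syvn1, at an unadjusted p under 0.05) and 0 of the ER folding, ERAD and ATF4 branch genes by DESeq2, with 0.0482% of 12444 genes called by edgeR (0.00804% higher and 0.0402% lower) and 5.75% at an unadjusted p under 0.05. Hspa5 averaged 1397 ± 163 CPM in KO_AML and 1344 ± 51.3 CPM in WT_AML (SD, n = 3 each), a log2 fold change of 0.08 (SE 0.067, edgeR adjusted p = 0.93). Apart from Serpinh1 (−0.69) and Trib3 (0.25), both low in AML cells, every log2 fold change of the 32 lay between −0.16 and 0.15. The smallest p of the other groups belonged to Dnajc3 (0.12, SE 0.058, edgeR adjusted p = 0.883), Atf6 (0.15, SE 0.085, edgeR adjusted p = 0.904) and Asns (0.07, SE 0.063, edgeR adjusted p = 0.939).

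Between the cell types most of the 33 genes differed. AML cells carried more of several chaperone transcripts than MSC from the same kind of co-culture, and less of 6 of the 7 ATF4 branch transcripts. Of the 32 tested genes 11 were higher in AML cells and 17 lower, where 84.8% of all 14536 genes were called, 40% as higher and 44.8% as lower (85.4% at an unadjusted p under 0.05). The 6 AML libraries were compared with the 8 co-cultured MSC libraries, with the genotype of the stroma as an additive term in the fit.

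Sdf2l1, an ER protein found with BiP and its co-chaperones, had 199, 207 and 227 CPM in KO_AML and 239.6, 182 and 220.1 CPM in WT_AML, against 19.4 to 28.2 CPM in KO_MSC_AML and 28.1 to 40.8 CPM in WT_MSC_AML. Every AML library had more than 4 times the level of every MSC library (log2 2.87, SE 0.12, edgeR adjusted p = 2.48e-12). Creld2 (1.21, edgeR adjusted p = 7.33e-10), Hyou1 (1.08), Dnajb11 (0.85), Manf (0.80), Calr (0.72) and Canx (0.38) were higher as well. Hspa5 (0.06, SE 0.15, edgeR adjusted p = 0.695) and Hsp90b1 (−0.03, SE 0.13, edgeR adjusted p = 0.837), which differ by genotype within MSC, did not pass between the cell types.

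Serpinh1 had 1.69 to 13.4 CPM in the AML libraries, against 1608 to 2836 CPM in KO_MSC_AML and 1564 to 1899.6 CPM in WT_MSC_AML (log2 −7.81, SE 0.44, edgeR adjusted p = 1.72e-10). Dnajb9, Pdia4, Pdia3, P4hb and Dnajc3 were also lower in AML cells. Of the ERAD genes Edem1 was higher (0.43, SE 0.076, edgeR adjusted p = 7.63e-05) and Herpud1 (−0.77, SE 0.098, edgeR adjusted p = 1.74e-06), Syvn1 (−0.47, SE 0.10, edgeR adjusted p = 0.000542) and Sel1l (−0.39) were lower. Among the sensors Xbp1 (0.55, SE 0.063, edgeR adjusted p = 5.23e-07) and Ern1 (0.81, SE 0.087, edgeR adjusted p = 2.3e-07) were higher, and Atf6 (−0.39) and Eif2ak3 (−0.93, SE 0.092, edgeR adjusted p = 8.55e-08) were lower.

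Atf4 was higher in AML cells, at 280.0, 279 and 299 CPM in KO_AML and 301, 272 and 305 CPM in WT_AML, against 140.0 to 220.0 CPM in KO_MSC_AML and 152 to 216 CPM in WT_MSC_AML (log2 0.68, SE 0.10, edgeR adjusted p = 1.35e-05). The other 6 genes of its branch were lower. Ppp1r15a had 22 to 24.5 CPM in the AML libraries against 136 to 255 CPM in co-cultured MSC (−2.91, SE 0.12, edgeR adjusted p = 2.25e-12). Trib3 had 2.83 to 4.90 CPM against 17.9 to 104 CPM (−3.74, SE 0.30, edgeR adjusted p = 1.37e-08), and Chac1 2.23 to 3.80 CPM against 13.4 to 37.4 CPM (−3.18, SE 0.27, edgeR adjusted p = 2.17e-08). Ddit3 (−2.65), Sesn2 (−1.45) and Asns (−0.50) were lower too. Total RNA per cell was not measured, so in these bulk libraries a lower share of the transcripts and less RNA of the gene per cell cannot be told apart.

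Other genes of the same pathways were read from lists that were also chosen with results of these data known. Of 39 tested further ATF4 targets, 5 fell and 0 rose in KO_MSC against WT_MSC, where 11.6% of all genes were called, with a median of −0.63 and 34 of 39 negative. The 5 were all aminoacyl-tRNA synthetase genes, Iars (−0.63, SE 0.13, edgeR adjusted p = 0.0308), Mars1 (−0.43, SE 0.097, edgeR adjusted p = 0.033) and, chosen after their values were seen, Nars, Lars and Tars. After co-culture 7 of the 39 fell and 1 rose in KO_MSC_AML against WT_MSC_AML, a share called that was below the 31.4% of all genes. Among them Gdf15, a stress-induced secreted factor, fell by 1.61 (SE 0.23, edgeR adjusted p = 0.000653) and Atf3 by 1.91 (SE 0.39, edgeR adjusted p = 0.00467) on the log2 scale, while the stress gene Nupr1 rose (0.66, SE 0.096, edgeR adjusted p = 0.00065). In KO_MSC_AML against KO_MSC 0 of the 39 passed by edgeR, with 32 at an unadjusted p under 0.05 and a median of 0.84. That background was 24.5% of all genes at an unadjusted p under 0.05, and the KO_MSC_AML libraries are shared with the previous comparison.

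Of 40 other ER translocation, glycosylation and folding genes, 5 fell and 2 rose in KO_MSC, where 11.6% of all genes were called. Sec61a1, the channel of the translocon, fell by 0.72 (SE 0.15, edgeR adjusted p = 0.0307) and the oligosaccharyltransferase subunit gene Rpn1 by 0.44 (SE 0.094, edgeR adjusted p = 0.0308) on the log2 scale, and Fkbp7 (0.37) and Erp44 (0.48), which retains proteins in the early secretory pathway, rose. After co-culture 6 fell and 6 rose, a share near the 31.4% of all genes called. Those with the smallest adjusted p were Fkbp2 (−0.66) and the signal peptidase subunit gene Spcs3 (−0.78) among the lower genes, and Erp44 (0.46) and the disulfide isomerase gene Pdia5 (0.59) among the higher ones. Of 17 other ERAD genes 0 passed in KO_MSC by edgeR (3 at an unadjusted p under 0.05), and after co-culture Ube2g2 (0.54) and Faf2 (0.29) rose. Of 18 other stress sensors and eIF2 regulators, Mbtps2, the site-2 protease that releases ATF6, fell in both comparisons (−0.52 alone and −0.38 co-cultured), and the adaptor gene Nck1 (0.46) rose in KO_MSC. Ppp1r15b, the constitutive counterpart of Ppp1r15a, fell by 0.50 after co-culture, while Gcn1 (0.36), an activator of the eIF2 kinase GCN2, Creb3l2 (0.47) and 1 more rose.

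Among 13 tested collagen-folding and modifying enzymes, P3h3 (0.57) rose in KO_MSC, as did Crtap (0.44), which takes part in prolyl 3-hydroxylation. The chaperone gene Fkbp10 fell by 0.61 there. After co-culture 5 rose, including P3h3 (0.75) and the lysyl hydroxylase gene Plod1 (0.91), and P3h4 fell by 0.28. Of 25 cytosolic chaperones 5 fell and 1 rose in KO_MSC, where 11.6% of all genes were called, and 5 fell and 1 rose in KO_MSC_AML, where the share called of the list was below the 31.4% of all genes. Hsph1, a partner of HSP70, fell in both (−0.64, SE 0.083, edgeR adjusted p = 0.0101 alone and −0.82, SE 0.11, edgeR adjusted p = 0.0004 co-cultured). Stip1, a co-chaperone that links HSP70 and HSP90, fell by 0.48 in KO_MSC and the cytosolic HSP90 gene Hsp90ab1 by 0.60 in KO_MSC_AML, and Dnajb1 (0.39) rose in KO_MSC and the inducible HSP70 gene Hspa1b (0.51) in KO_MSC_AML. Of 11 mitochondrial chaperones and proteases Hspd1, the mitochondrial HSP60, fell by 0.69 in KO_MSC and the protease gene Afg3l2 by 0.42 in KO_MSC_AML. None of these 7 lists had a call in WT_MSC_AML against WT_MSC, KO_MSC_AML against KO_MSC, KO_AML against WT_AML or the interaction by edgeR. In that order, 1 to 19, 2 to 32, 1 to 2 and 0 to 5 of a list's genes had an unadjusted p under 0.05. The shares over all genes were 18.3%, 24.5%, 5.75% and 7.73%.

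The same lists were compared between the cell types. All 13 tested collagen-folding and modifying enzymes were lower in AML cells than in co-cultured MSC, among them P4ha3, a prolyl 4-hydroxylase (0.598 against 116 CPM, log2 −7.64), and P3h3 (1.75 against 202 CPM, log2 −6.85). Of the 25 cytosolic chaperones 18 were higher, such as the HSP90 gene Hsp90aa1 (2.35) and its activator Ahsa1 (1.66), and 7 were lower, such as Dnajb4 (−5.30) and Hspa1b (−4.83). Of the 11 mitochondrial chaperones and proteases 8 were higher, including Trap1 (1.21) and Grpel1 (1.13), and Clpx (−0.65) was lower. Of the 39 further ATF4 targets 8 were higher, with Stc2 (1.89) and the serine hydroxymethyltransferase gene Shmt2 (1.34), and 19 lower, with Aldh1l2 (−7.03), a mitochondrial enzyme of folate metabolism, and Vldlr (−7.07). Of the 40 other ER genes 19 were higher, with Dnajc10 (1.94) and the signal peptidase subunit gene Sec11c (2.36), and 16 lower, with the disulfide isomerase gene Txndc5 (−2.41) and Sil1 (−1.80), which exchanges nucleotide on BiP. The other ERAD genes had 6 higher (Nploc4, 0.89, and Aup1, 0.46) and 9 lower (Faf2, −1.74, and Erlec1, −1.96). The other sensors and eIF2 regulators had 10 higher, with the eIF2B subunit genes Eif2b1 (1.71) and Eif2b4 (1.28), and 5 lower, with Creb3l1 (−3.83) and Creb3 (−2.98). Except for the collagen enzymes, none of these lists was called in 1 direction alone, in a comparison where 84.8% of all genes were called.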

How the data were processed

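RNA-seq libraries of sorted or cultured cells were made with SMART-Seq v4 and Nextera XT, per the labels' protocols. The authors deposited raw counts per gene. Per the submitters' processing notes, reads were aligned with STAR 2.6.1d and counted with featureCounts against GRCm38. The sources used here give neither annotation nor strand setting, so reads of overlapping antisense genes cannot be told apart. The authors' 22 normalized columns were not used.

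Groups follow the titles. Every comparison took the deposited counts of its own groups into edgeR 4.0.16 (R 4.3.3), with TMM normalization, filterByExpr and the robust, two-sided quasi-likelihood test, p-values being adjusted over all genes by Benjamini-Hochberg. The AML comparison used the 14 co-culture libraries, with the genotype of the stroma as an additive term beside cell type. The interaction used all 16 MSC libraries. The 1275 rows without a symbol held 0.501% to 0.825% of counts and stayed in the fits as genes with identifiers. CPM uses TMM factors over all libraries, and lengths are exon unions of GENCODE M21 (GRCm38). Replicates within a group were checked by a chi-square test of counts, and no pair looked like 1 library (smallest statistic 4.42 per degree of freedom). Alternatives were DESeq2 1.42.0 and its size factors, no filter, no robust moderation, the replicate number as a block, all MSC libraries in 1 fit, libraries with Ddx3y only and each library left out. The fits were tested on simulated data.

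The 33 genes, the other lists, the motifs and the rule for named genes were chosen with earlier results of these data known. The rule takes Hspa5, Atf4 and Ddit3, up to 3 called genes per role and comparison or the 1 with the smallest p, and up to 2 called each way per other list. Other named genes are given as examples chosen after their values were seen.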

Additional observations from a re-analysis of the deposited data

Results flagged for a closer look

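A gene was listed here when the highest or lowest library of a group of 4 or 5 lay far from the others by Dixon's test at the 95% level. Of 99 gene and group pairs tested, 13 met this, and chance gives about 1 in 20. WT_MSC replicate 1 accounts for 6. It was above the other WT_MSC libraries for Canx (682.656 against 521 to 544 CPM), Dnajb9 (53.3098 against 30.4 to 30.5 CPM), Dnajb11 (184.199 against 128 to 133 CPM), Sel1l (318.459 against 196 to 206 CPM) and Derl3 (0.311147 against 0.12 to 0.132 CPM), and below them for P4hb (1152.85 against 1539 to 1612 CPM).

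KO_MSC replicate 3 accounts for 4. It was above the other KO_MSC libraries for Atf4 (152.72 against 110.0 to 112 CPM), Ddit3 (27.4709 against 11.6 to 13.5 CPM) and Trib3 (30.1678 against 2.49 to 4.81 CPM), and below them for Sdf2l1 (18.4393 against 27.8 to 29.5 CPM). WT_MSC_AML replicate 5 was above the other libraries of its group for Syvn1 (177.785 against 122 to 137 CPM), Eif2ak3 (63.448 against 54.6 to 56.9 CPM) and Ddit3 (32.5877 against 16 to 18.1 CPM). Its label carries a running number apart from those of the other WT_MSC_AML libraries. Whether sex of origin, growth or handling of these libraries plays a part was not tested.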

How the results depend on the processing

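Counts of called genes depended on the libraries and the tool, and counts over all genes moved too. With a library left out, calls over all genes ran from 55 to 6242 in KO_MSC against WT_MSC. They ran from 0 to 1324 in KO_MSC_AML against KO_MSC and from 2958 to 4535 in KO_MSC_AML against WT_MSC_AML. The interaction had 0 to 81, and AML against co-cultured MSC had 12171 to 12534. Calls by DESeq2, with the replicate block, with all MSC libraries in 1 fit and without robust moderation are given without the share over all genes. A change in those counts therefore cannot be read as particular to these genes. For KO_MSC against WT_MSC, 7 ER folding and ERAD genes were called in the main fit, 11 by DESeq2, 17 in the Ddx3y libraries, 1 with the replicate block (Manf) and 0 to 12 with a library left out. ATF4 branch calls there were 0 in the main fit, 2 by DESeq2, 3 with all MSC libraries in 1 fit, 5 in the Ddx3y libraries and 0 to 4 with a library left out (4 without WT_MSC replicate 1, 1 without KO_MSC replicate 3). For KO_MSC_AML against KO_MSC, 3 and 3 were called by DESeq2, 2 and 3 with all MSC libraries in 1 fit, and 0 to 2 and 0 to 5 with a library left out, where the main fit called 0 and 0. There, calls came without KO_MSC replicate 3 or KO_MSC_AML replicate 2. For KO_MSC_AML against WT_MSC_AML, the 8 ER folding and ERAD calls were 1 with the replicate block and 5 to 11 with a library left out (5 without WT_MSC_AML replicate 1, 2 or 4). The ATF4 call was 2 by DESeq2, 2 without robust moderation and 1 to 2 with a library left out. The interaction gave 0 to 1 ATF4 call with a library left out. Deviations of same-numbered libraries from their group means had correlations of −0.113 to 0.262 in culture alone and −0.415 to 0.163 after co-culture. They were −0.0729 to 0.302 between KO_MSC_AML and KO_MSC and −0.144 to 0.352 between KO_AML and WT_AML. So few libraries cannot show whether same-numbered ones share an animal or a culture, and the labels do not say. AML against co-cultured MSC gave 17 to 18 calls with a library left out.

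Some log2 fold changes that had not passed changed sign. In KO_MSC against WT_MSC, Atf6 was 0.015 and Ddit3 −0.23 in the Ddx3y libraries, and Ddit3 ran from −0.23 to 0.29 with a library left out. In KO_MSC_AML against WT_MSC_AML, Atf4 ran from −0.10 to 0.20. The interaction of Hspa5 was 0.030 with the replicate block and ran from −0.12 to 0.16. In KO_AML against WT_AML, Hspa5 ran from −0.0027 to 0.13, Atf4 from −0.047 to 0.029 and Ddit3 from −0.16 to 0.23. In AML against co-cultured MSC, Hspa5 ran from −0.0077 to 0.14. The cause was not tested. No called fold change in the 2 comparisons of KO with wild type MSC changed sign under any of the 15 and 14 alternatives. Reads limit Derl3, at or below 0.486 CPM, and the spread within groups limits Trib3 and Chac1.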
